A study of Homo sapiens with 2 samples.

Results

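Sodium-proton exchangers and lactate transporters move acid across cell membranes, and their transcripts were compared between a C33-A line that carries carbonic anhydrase IX and its empty-vector control. The genes asked for were the exchangers SLC9A2, SLC9A7, SLC9A8 and SLC9A9, the lactate carriers SLC16A1, SLC16A3 and SLC16A7, and BSG, the partner protein of the carriers. These genes were chosen with earlier results of these data known. A probe set was taken when the platform annotation pairs it with exactly 1 of these symbols, and no measured value entered that choice of probe sets. This gave 11 of the 54675 probe sets on the array, and they stand for 5 of the 8 genes. The annotation used here pairs no single-gene probe set with SLC9A7, SLC16A1 or SLC16A3, so these 3 genes are not analysed here.

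The samples were 1 array of C33-A stably transfected with the full-length human CA9 cDNA in pcDNA3.0 and 1 array of C33-A stably transfected with the empty vector. C33-A is an established human cervical carcinoma line of epithelial morphology that grows attached to the dish. Both lines were kept in RPMI with antibiotics and 10% fetal serum of bovine origin, at 5% CO2, and RNA was taken on day 4 after seeding. The labels do not say whether either line is 1 clone or a pool. Neither line was replicated, so a difference cannot be separated from the spread between cultures or arrays of the same line, and no test, p-value or error between replicates can be given.

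Cells that rely on glycolysis make lactate and protons together. SLC9 proteins exchange intracellular protons for sodium at the cell surface or set the pH inside Golgi and endosomal compartments, while SLC16 proteins of the monocarboxylate carrier group move lactate with a proton. Carbonic anhydrase IX acts on the outer face of the same membrane, where it turns carbon dioxide into bicarbonate and a proton. The comparison asks whether transcripts of the acid-extruding carriers differed when that enzyme was supplied from a vector.

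Of the 5 genes with a probe set 3 were measurable, and none of the 3 had a measured difference of 2-fold. SLC9A2 was at least 1.36-fold higher and BSG 1.20-fold higher in the CA9 line, SLC9A9 lay near 0, and SLC9A8 and SLC16A7 were too dim to compare. The floor for a measurable gene was an intensity of 40.8, which is the median over both arrays of the non-control probe sets, and it had to be passed on at least 1 array. It is a rank within the arrays and not a measured background. Of the 11 probe sets, 3 lay above the floor on both arrays, 1 on the CA9 array alone, and 7 on neither. Over all genes 1.35% of 13823 measurable genes were at least 2-fold apart, 0.651% higher and 0.694% lower in the CA9 line. These calls use the measured difference, and of the 90 higher and 96 lower genes 22 and 21 were less than 2-fold apart once a value below the floor was raised to it. At a background of 1.35%, 0 called genes among 3 says little about these genes.

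**Figure D1:**
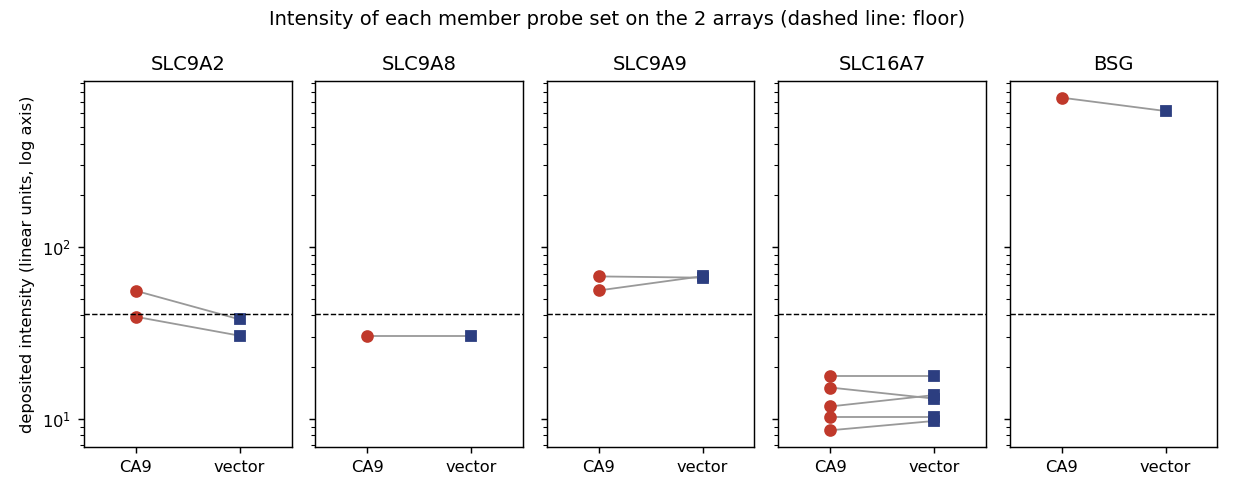
Deposited intensity of each of the 11 probe sets on the CA9 array (circles, left) and the vector array (squares, right), on a log axis, with 1 panel per gene and lines joining the same probe set. The dashed line is the floor of 40.8: SLC9A8 and SLC16A7 lie below it on both arrays, and SLC9A2 crosses it with 1 probe set in the CA9 line. Levels of different probe sets cannot be compared.

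SLC9A2, which encodes the plasma membrane exchanger NHE2 of gut and other epithelia, had the largest measured difference of the genes of this group. Its probe set 208039_at gave an intensity of 55.6 in the CA9 line, against 37.9 in the vector line. The vector value lies below the floor, so the transcript was at least 1.36-fold higher in the CA9 line, and the measured log2 difference was 0.55. A gene that passes the floor through the CA9 array alone has a positive difference by construction. The second probe set, 211116_at, had intensities of 39.3 in the CA9 line, against 30.5 in the vector line, both below the floor, with a log2 difference of 0.37. Neither probe set therefore gives a direction free of the floor. Of all measurable genes, 12.0% had a measured difference at least as far from 0 as that of 208039_at, and 19.7% were at least as far as its bound.

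SLC9A9, which encodes NHE9 of recycling endosomes, was above the floor on both arrays in both of its probe sets, and they pointed in opposite directions. Probe set 227791_at had 67.5 in the CA9 line, against 66.3 in the vector line, a log2 difference of 0.025. Probe set 242587_at had 55.9 in the CA9 line, against 67.6 in the vector line, a log2 difference of -0.28. The SD of log2 differences between probe sets of the same gene, pooled over 6186 genes, was 0.31, so neither value exceeded that disagreement between probe sets. This SD comes from the same 2 arrays and does not measure the spread between cultures or arrays. The average over both probe sets was -0.13, and the sign of 227791_at turned to -0.037 when the medians of the arrays were set equal.

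SLC9A8, which encodes NHE8, an exchanger found in the Golgi and at the apical surface of epithelia, was represented by 212947_at alone. Its intensity was 30.5 in the CA9 line, against 30.5 in the vector line, the same deposited value to the last digit and below the floor. No direction or fold can be read for this gene.

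BSG encodes basigin, also called CD147, the membrane glycoprotein that carries the lactate transporters MCT1 and MCT4 to the cell surface. Its probe set 208677_s_at gave an intensity of 741 in the CA9 line, against 619 in the vector line, both well above the floor, so it was 1.20-fold higher in the CA9 line. The log2 difference of 0.26 is smaller than the SD of 0.31 between probe sets of a gene, and 44.2% of measurable genes were at least as far from 0. That SD is pooled over all levels, probe sets near the floor included, and is not matched to the level of BSG. The suffix of this probe set marks a kind that can also detect related transcripts, and BSG has no other probe set to set beside it.

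SLC16A7 encodes MCT2, a lactate and pyruvate carrier of high affinity that serves uptake in neurons and other cells. All 5 of its probe sets lay below the floor on both arrays. The highest were 17.7 in the CA9 line, against 17.7 in the vector line (210807_s_at), and the lowest were 8.57 in the CA9 line, against 9.71 in the vector line (230003_at). Their log2 differences ran from -0.22 to 0.21, with 1 probe set higher, 2 lower and 2 equal, so the 5 probe sets gave no common direction. The gene cannot be said to be absent from these cells, since a low intensity also depends on the probes.

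Some of these probe sets carried no difference at all. Of the 7 probe sets below the floor, 3 carried exactly the same deposited value on both arrays, 1 of SLC9A8 and 2 of SLC16A7. Among all single-gene probe sets below the floor on both arrays, 4.12% of 16917 did so. The reason was not tested, and these 3 values carry no measured difference.

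**Figure D2:**
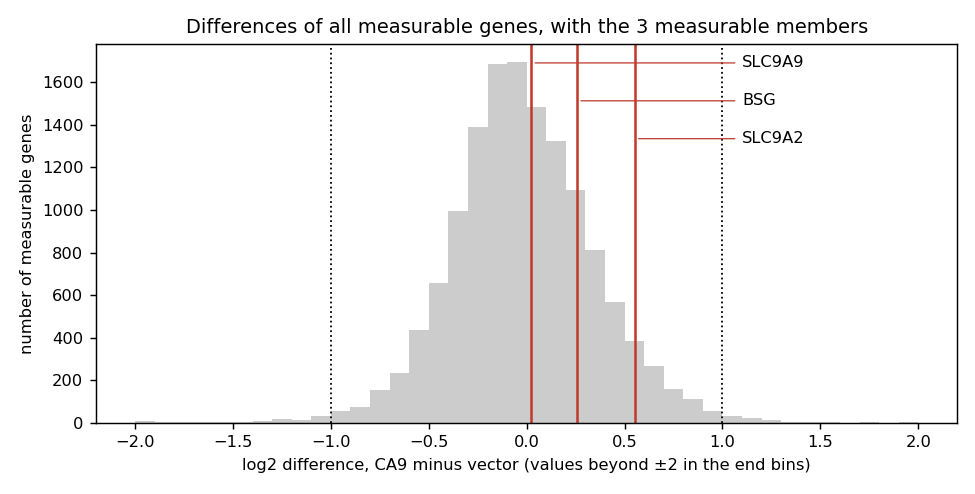
Histogram of the log2 difference, CA9 minus vector, of 13823 measurable genes, with dotted lines at 2-fold and vertical lines at the 3 measurable genes of the group. SLC9A9 at 0.025, BSG at 0.26 and SLC9A2 at 0.55 lie inside the dotted lines.

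The median log2 difference of the 3 measurable genes was 0.26, beside -0.032 over all measurable genes. All 3 were above 0, as were 45.9% of all measurable genes. SLC9A2 had to be so once it passed the floor, and the sign of SLC9A9 depended on the scaling. Only BSG and SLC9A2 were above 0 in every alternative that gave them a value, between 0.20 and 0.35 for BSG and between 0.41 and 0.55 for SLC9A2. Every alternative reuses the same 2 arrays, so a sign that stays the same adds no support for either gene.

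**Figure D3:**
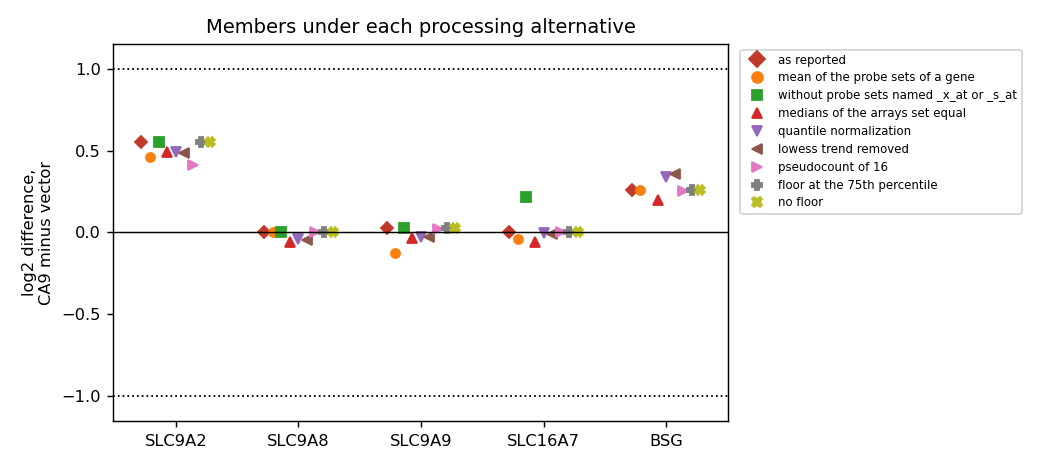
Log2 difference, CA9 minus vector, of the 5 genes with a probe set, as reported and under each processing alternative. Dotted lines mark 2-fold: no measured difference reaches them, SLC9A2 and BSG stay above 0, and SLC9A8, SLC9A9 and SLC16A7 lie near 0 or on both sides of it. All alternatives reuse the same arrays, and SLC9A2 passed the floor in the CA9 line alone.

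Promoter sequence is shown for SLC9A2, the gene with the largest measured difference, and for BSG, the partner of the lactate carriers, to give the regulatory context of both. The stretches run from 250 bases before to 50 bases after a start listed by RefSeq on GRCh38.p14, on the plus strand, chr2:102619303-102619602 for SLC9A2 and chr19:572346-572645 for BSG. Capitals mark ACGTG or GCGTG on either strand, the core letters of hypoxia response elements.
SLC9A2: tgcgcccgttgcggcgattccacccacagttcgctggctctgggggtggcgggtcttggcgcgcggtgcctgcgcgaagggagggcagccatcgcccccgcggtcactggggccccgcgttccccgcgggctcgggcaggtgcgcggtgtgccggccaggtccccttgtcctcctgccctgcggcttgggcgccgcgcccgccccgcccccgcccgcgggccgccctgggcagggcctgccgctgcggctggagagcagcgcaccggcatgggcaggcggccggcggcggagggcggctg
BSG: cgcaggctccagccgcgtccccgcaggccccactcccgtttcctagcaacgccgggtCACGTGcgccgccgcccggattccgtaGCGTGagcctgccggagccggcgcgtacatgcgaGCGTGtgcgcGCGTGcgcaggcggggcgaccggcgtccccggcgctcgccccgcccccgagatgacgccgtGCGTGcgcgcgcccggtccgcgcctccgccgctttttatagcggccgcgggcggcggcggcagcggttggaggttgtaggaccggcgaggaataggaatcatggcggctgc
The SLC9A2 stretch holds neither motif and is 80.0% G and C, with 41 CpG. The BSG stretch is 75.3% G and C, with 54 CpG, and holds ACGTG 2 times and GCGTG 4 times. Both ACGTG matches lie in 1 palindrome, CACGTG, read on each strand. Of 35116 promoter stretches of this length, 48.4% hold ACGTG or GCGTG, 10.1% hold 3 or more such matches, and 7.26% hold CACGTG. The median stretch is 58.7% G and C, with 14 CpG. The other listed BSG start and the SLC9A9 start hold neither motif. A match describes the letters alone, and no binding was measured here.

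Other genes of proton and lactate handling were looked at as well, together with relatives of the group. The other SLC9 and SLC16 genes were listed by family, and transport of protons or lactate was not a condition. Of 45 genes listed for comparison, 34 had a single-gene probe set and 26 were measurable. Their log2 differences ran from -1.22 to 0.80, with 8 (30.8%) above 0, 18 below and a median of -0.16. Over all measurable genes 45.9% were above 0, with a median of -0.032. NHERF2, LDHD and SLC16A9 passed the floor on 1 array alone, which fixed their signs. Of the 26 genes 1 was called, lower, beside 0.694% of all measurable genes called lower. That gene was SLC16A9, listed as a carrier of the SLC16 family and not as a lactate carrier. It had 18.7 in the CA9 line, against 43.7 in the vector line. Its vector value was just above the floor, so the fold that can be stated is at least 1.07-fold lower, and the measured log2 difference was -1.22. The call was lost with a pseudocount of 16 and with the floor at the 75th percentile.

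Among the other SLC16 carriers, SLC16A8, the lactate carrier MCT3 of the retinal pigment epithelium, had the largest positive difference. It had 88.3 in the CA9 line, against 63.4 in the vector line, 1.39-fold higher, with both values above the floor. The list held 4 measurable SLC16 genes, 2 above 0 and 2 below.

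The chaperones related to basigin both lay below 0, whereas BSG lay above. EMB encodes embigin, known from the rat as the preferred partner of MCT2, and had 232 in the CA9 line, against 334 in the vector line, a log2 difference of -0.53. NPTN, neuroplastin, had 1097 in the CA9 line, against 1348 in the vector line, a log2 difference of -0.30. These differences were short of 2-fold, and whether they differ from that of BSG cannot be tested with 1 array per line.

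Among exchangers outside the group, SLC9B2 and SLC9A5 were measurable, at log2 differences of -0.43 and -0.17. SLC9B2 had a second probe set with the opposite sign, 43.8 in the CA9 line, against 36.3 in the vector line. That vector value lies below the floor, so the fold is at least 1.07 and the floor fixed its sign. Of 6 measurable partner proteins of exchangers, 3 were above 0 and 3 below. NHERF2, a scaffold that binds NHE3, was 43.4 in the CA9 line, against 26.0 in the vector line, at least 1.06-fold higher against the floor. CHP1, a calcium-binding partner of plasma membrane exchangers, had 742 in the CA9 line, against 871 in the vector line, a log2 difference of -0.23.

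Enzymes that make or use lactate and pyruvate were short of 2-fold. Of 9 measurable enzymes, 2 lay above 0 and 7 below, with a median of -0.086. LDHD, the mitochondrial D-lactate dehydrogenase, had 46.7 in the CA9 line, against 26.8 in the vector line, at least 1.14-fold higher. PDK3, a kinase that shuts off pyruvate dehydrogenase, had 188 in the CA9 line, against 253 in the vector line, a log2 difference of -0.43. Another PDK3 probe set above the floor on both arrays had 88.9 in the CA9 line, against 83.1 in the vector line, a log2 difference of 0.097. A further PDK3 probe set had 40.5 in the CA9 line, below the floor, against 58.4 in the vector line, at least 1.43-fold lower. PDK1, a kinase of the same family that was chosen after its values were seen, had a log2 difference of -0.16 in its brightest probe set. A second PDK1 probe set had 43.5 in the CA9 line, against 81.0 in the vector line, a log2 difference of -0.90. LDHA and LDHB, the subunits of lactate dehydrogenase and chosen here after their values were seen, had log2 differences of -0.086 and 0.029.

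MPC1 and MPC2 form the carrier that takes pyruvate into mitochondria. MPC1 had 82.6 in the CA9 line, against 127 in the vector line, 1.54-fold lower. MPC2 had 824 in the CA9 line, against 862 in the vector line in its brightest probe set, a log2 difference of -0.065. A second MPC2 probe set had 40.7 in the CA9 line, below the floor, against 70.3 in the vector line, at least 1.72-fold lower. The sodium-coupled lactate carrier SLC5A8 had 84.5 in the CA9 line, against 71.7 in the vector line, a log2 difference of 0.24. The lactate receptor HCAR1 was below the floor on both arrays.

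**Figure D4:**
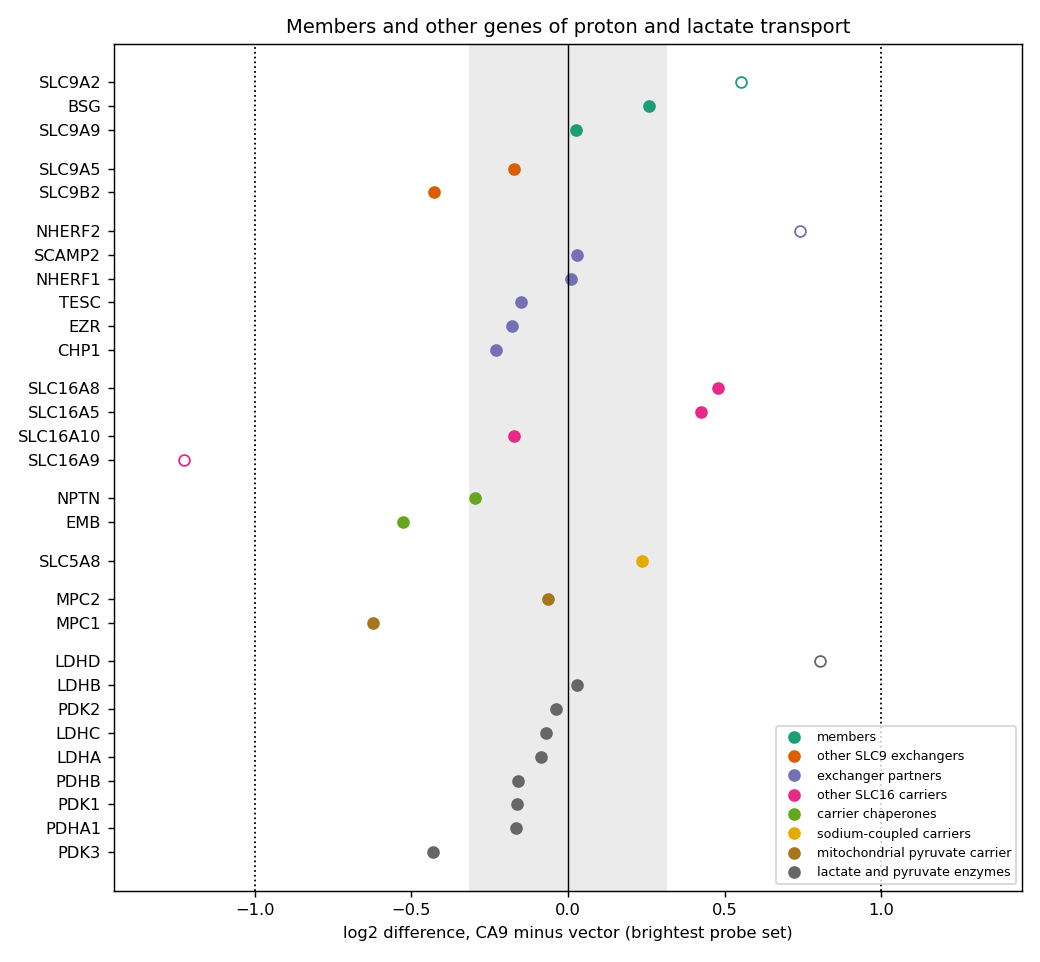
Log2 difference, CA9 minus vector, in the brightest probe set of the 3 measurable genes of the group (top) and of the 26 measurable genes of the comparison list, coloured by role. Filled points lie above the floor on both arrays and open points on 1 array, the grey band spans the SD of 0.31 between probe sets of a gene, and dotted lines mark 2-fold, which SLC16A9 passes.

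The arrays were close in their median intensity, 41.8 for the CA9 line and 40.1 for the vector line, which does not describe the rest of their distributions. CA9 itself is not analysed here, so the transgene gives no check of the labels. Of the epithelial markers, KRT8 and KRT18 lay above the floor on both arrays, KRT19 on the CA9 array alone, and EPCAM and CDH1 on neither. KRT8 and KRT18 were higher in the CA9 line, by log2 differences of 0.57 and 0.52, and their part in the difference of SLC9A2 was not tested. Each of these keratins has 1 probe set, named _x_at, a kind that can also detect related transcripts. The summed intensity of the brightest probe sets of the 5 epithelial markers, dim ones included, was 271 in the CA9 line, against 197 in the vector line. The 4 blood cell markers summed to 185 in the CA9 line, against 209 in the vector line, and the 5 fibroblast and endothelial markers to 3040 in the CA9 line, against 2765 in the vector line. COL3A1 alone gave 2538 of the 3040 and 2339 of the 2765. Levels of different probe sets cannot be compared, so the sums of the marker groups cannot be set against each other.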

How the data were processed

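RNA of 2 lines was measured on Affymetrix arrays, 1 array per line. The deposited intensity of each probe set came from RMA as run by the authors (per the submitters' processing notes). Its version, settings and probe definitions are not given in the sources used here. The deposited values are on a linear scale, read from the values, and were put on log2 without a pseudocount. Gene names came from the platform annotation, which lists 42898 probe sets. Of 41091 probe sets with 1 gene, 41037 matched RefSeq (GRCh38.p14) by Entrez identifier. Each gene took the values of its brightest probe set (by mean log2 over both arrays) and was called where its measured difference was 2-fold or more, values below the floor included. If 1 array was below the floor, the fold printed for a gene was taken against the floor and written "at least". All members are named, as are the called genes and the 2 measurable genes farthest from 0 in each role of the comparison list; others are marked as chosen afterwards. The members and lists were chosen with earlier results of these data known. The number of arrays limits the precision. Alternatives covered the choice of probe set, the normalization, a pseudocount and the floor. Python 3.11.15, numpy 2.4.6, pandas 2.3.3, statsmodels 0.14.6 and matplotlib 3.10.9 were used.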

Additional observations from a re-analysis of the deposited data

How the results depend on the processing

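No gene of the group was called under any of the 8 alternatives, and the difference of each of the 5 genes moved by less than the SD of 0.31 between probe sets of a gene. BSG has no value without probe sets named _x_at or _s_at. The median of the measurable genes of the group was 0.025 with no floor, where SLC9A8 and SLC16A7 at 0 entered, and between 0.20 and 0.35 under the other alternatives. With the floor at the 75th percentile only BSG was left. Over all genes, averaging the probe sets of a gene gave 44 higher and 48 lower genes, a pseudocount of 16 gave 42 and 51, and the floor at the 75th percentile gave 56 and 66, against 90 higher and 96 lower as reported. With equal medians 35.9% of called genes were higher, against 48.4% as reported. The comparison list held 0 called genes with the pseudocount and 0 at the higher floor, where SLC16A9 fell out, and 1 otherwise. No paired analysis was possible because each line has 1 array. Low intensities limit what can be said of SLC9A2, SLC9A8 and SLC16A7.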

Other observations

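Antisense or overlapping transcripts named after genes of these families were looked up after the annotation had been seen. SLC16A1-AS1, a transcript antisense to the gene of the lactate carrier MCT1, gave an intensity of 74.2 in the CA9 line, against 56.8 in the vector line in 1560579_s_at, a log2 difference of 0.39. Its other probe sets lay below the floor on both arrays, with log2 differences of -0.22 and 0.14. SLC9A3-AS1 had 99.1 in the CA9 line, against 77.9 in the vector line, a log2 difference of 0.35. SLC9A3-OT1 had 121 in the CA9 line, against 120.0 in the vector line. None of these values measures SLC16A1 or SLC9A3 itself.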
